A study of Mus musculus with 14 samples.

Results

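Bulk ATAC-seq, in which the transposase Tn5 cuts open chromatin, was done on LT-HSCs of mice, the long-term repopulating stem cells of blood, and the regions described here are the intergenic peaks that lie near protein-coding genes. A consensus peak was taken when it overlapped no protein-coding gene span of the RefSeq annotation (mm10), lay more than 1 kb but at most 50 kb from the nearest span, and was on an autosome. This held for 13479 of the 57289 peaks, 23.5%, all 700 bp wide. Position alone chose them, and no measured value was used. Just inside the inner limit was a peak 1001 bp from Qrfprl, which was too weak to be tested, and just outside it one 1000 bp from Sephs2 with a mean of 8.72 CPM. At the outer limit, a peak 49998 bp from Prdx6 (mean 6.54 CPM) was included and one 50040 bp from Rad51b (mean 8.25 CPM) was not. CPM is a count relative to the total of its library, here after scaling for library composition.

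All cells were C57BL/6 LT-HSCs sorted as Lin- Sca1+ cKit+ CD34- Flt3-. The groups were young mice (10 to 16 weeks, n = 4), aged mice (over 80 weeks, n = 5) and aged mice whose cells received Rhosin (n = 5, called aged Ri here), an inhibitor of the GTPase RhoA, at 100 µM. Cells of every group, the untreated ones included, spent 16 h outside the animal in HBSS with 10% serum at 37 °C, 3% oxygen and 5% carbon dioxide, so no group shows freshly isolated cells. Each of the 3 sequencing batches held all 3 groups, but not evenly. Batch 1 held only young 1 of the young libraries. Batch 3 held 1 library per group: young 4, aged 5 and aged Ri 5. The labels give no further genotype and do not say whether a library came from 1 animal or a pool, so p-values measure the spread between these libraries. Totals ran from 765533 counts (young 3) to 3176246 (aged Ri 3), and the median peak of the intergenic set held 6 counts in young 3 and 24 in aged Ri 3. Counting error is therefore large at single peaks. Within a bulk library, fewer cells with an open site and a site less open per cell cannot be told apart.

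Intergenic open chromatin holds enhancers, which bind transcription factors and can act on a promoter many kilobases away, together with promoters of non-coding RNAs and binding sites of architectural proteins. In blood stem cells, enhancers near genes such as Gata2, Tal1, Spi1 and Runx1 are classic examples of such distal control. The nearest gene is used below as an address only, since an enhancer can skip its nearest gene. RhoA is a switch that drives actin assembly through kinases such as ROCK, and actin in turn controls the coactivators of the transcription factor SRF.

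The sites that RefSeq could place sequence on were promoters of non-coding RNAs and microRNA hairpins. A promoter of a long non-coding RNA (lncRNA), defined as the bases from 250 before to 50 after its annotated start, underlay 456 of the intergenic peaks (3.38%). Printed here are 6 of these windows (RefSeq, GRCm38.p6), chosen after their values were seen: 2 under bright peaks of steady level and 4 under peaks that differed between groups. They run 5′ to 3′ on the strand of the lncRNA, and capitals mark every match to the motifs listed after them.
Mir22hg, host of miR-22, chr11:75461289-75461588, plus strand: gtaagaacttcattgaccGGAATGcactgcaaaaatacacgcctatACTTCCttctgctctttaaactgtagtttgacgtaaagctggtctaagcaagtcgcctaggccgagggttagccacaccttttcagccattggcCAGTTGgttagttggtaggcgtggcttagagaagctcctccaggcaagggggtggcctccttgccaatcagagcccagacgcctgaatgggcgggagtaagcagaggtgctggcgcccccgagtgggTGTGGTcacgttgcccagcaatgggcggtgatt
Chaserr, the lncRNA beside Chd2, chr7:73558346-73558645, minus strand: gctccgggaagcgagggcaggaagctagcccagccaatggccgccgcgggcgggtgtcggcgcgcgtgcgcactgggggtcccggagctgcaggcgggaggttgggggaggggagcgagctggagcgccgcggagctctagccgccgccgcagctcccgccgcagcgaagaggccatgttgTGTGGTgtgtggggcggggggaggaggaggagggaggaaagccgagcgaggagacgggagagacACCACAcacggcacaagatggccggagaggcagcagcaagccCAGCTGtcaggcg
Gm39087, beside Nupr1, chr7:126621519-126621818, plus strand: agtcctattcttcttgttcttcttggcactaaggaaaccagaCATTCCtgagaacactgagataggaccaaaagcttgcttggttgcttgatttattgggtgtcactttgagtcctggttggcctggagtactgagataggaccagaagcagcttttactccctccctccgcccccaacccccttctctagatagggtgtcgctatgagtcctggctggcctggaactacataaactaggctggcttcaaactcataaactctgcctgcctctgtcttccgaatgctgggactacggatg
Gm3331, between Ets1 and Kirrel3, chr9:32789367-32789666, plus strand: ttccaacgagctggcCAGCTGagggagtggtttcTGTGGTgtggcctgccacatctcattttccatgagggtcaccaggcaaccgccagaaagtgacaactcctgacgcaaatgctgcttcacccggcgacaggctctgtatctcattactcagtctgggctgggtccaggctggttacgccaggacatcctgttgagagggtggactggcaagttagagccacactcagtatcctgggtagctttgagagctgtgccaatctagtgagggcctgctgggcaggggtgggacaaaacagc
Snhg20, a small nucleolar RNA host gene, chr11:117076533-117076832, plus strand: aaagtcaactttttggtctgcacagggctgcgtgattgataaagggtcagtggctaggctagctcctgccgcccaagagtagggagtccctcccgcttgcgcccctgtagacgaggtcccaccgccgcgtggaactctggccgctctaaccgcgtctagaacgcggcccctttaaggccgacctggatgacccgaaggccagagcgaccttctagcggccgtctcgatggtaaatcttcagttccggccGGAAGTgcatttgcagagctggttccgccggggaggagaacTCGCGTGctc
Gm46838, between Rap1a and Tmigd3, chr3:105825804-105826103, minus strand: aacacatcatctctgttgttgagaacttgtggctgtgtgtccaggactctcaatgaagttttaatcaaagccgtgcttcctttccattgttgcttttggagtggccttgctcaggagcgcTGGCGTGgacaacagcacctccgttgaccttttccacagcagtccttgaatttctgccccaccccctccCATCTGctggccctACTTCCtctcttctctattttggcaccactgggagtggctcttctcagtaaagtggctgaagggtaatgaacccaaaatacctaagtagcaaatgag

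The motifs were searched on both strands as fixed letters, N standing for any base. For AP-1 the letters were TGANTCA, and for the cAMP element CRE they were TGACGTCA. The antioxidant element ARE was searched as TGACNNNGC, which can overlap an AP-1 match, and the xenobiotic element XRE as TNGCGTG. Factors of the GATA family were given AGATAA as their letters. RUNX factors were given TGTGGT in the same way, the ETS family was searched as GGAAGT, and the TEAD family as GGAATG. An E-box was any CAGNTG in the window. The CEBP family was searched as TTGCNNAA, the KLF family as GGGTGTGGC and SRF by its CArG box. Mir22hg held 1 match each of RUNX, ETS, TEAD and E-box. Chaserr held 2 of RUNX and 1 E-box, Gm39087 only 1 TEAD match, Gm3331 1 RUNX and 1 E-box, Snhg20 1 XRE and 1 ETS, and Gm46838 1 XRE, 1 ETS and 1 E-box. No window of these 6 had a letter match to the other motifs. Among all 32851 RefSeq promoter windows of this length, 16.8% held the RUNX letters, 23.8% ETS, 14.7% TEAD, 51.4% the E-box and 5.07% XRE. The 527 lncRNA windows that intergenic peaks overlap held the AP-1 letters in 14%, against 9.31% of 11588 lncRNA windows and 7.81% of all windows. Their other shares, against those of all lncRNA windows, were 28.1% and 21.9% for ETS, 19.9% and 20% for RUNX, 13.7% and 14% for GATA, 17.1% and 16.6% for TEAD, 56.7% and 56.6% for the E-box, 5.50% and 3.38% for XRE, 13.1% and 11.3% for ARE, 13.5% and 12% for CEBP, 2.09% and 0.975% for CRE, 1.33% and 1.61% for SRF, and 0.569% and 1.04% for KLF. A letter match is a description of the window and not a bound site.

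MicroRNA hairpins overlapped 12 of the intergenic peaks. Those with the best known roles in blood or inflammation were let-7i, miR-142, miR-155 and the miR-132 and miR-212 pair, shown with the seed (bases 2 to 8, which pair with target mRNAs) in capitals.
let-7i-5p: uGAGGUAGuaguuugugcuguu
miR-142a-5p: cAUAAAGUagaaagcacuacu
miR-142a-3p: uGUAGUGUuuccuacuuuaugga
miR-155-5p: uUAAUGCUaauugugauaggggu
miR-132-3p: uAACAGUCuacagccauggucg
miR-212-3p: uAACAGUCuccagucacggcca
The last pair share the seed AACAGUC. A peak near Ovca2 covers miR-212-3p and the start of the miR-132 hairpin, but ends before miR-132-3p. No microRNA peak was called between aged and young or between aged Ri and aged cells. The let-7i peak (chr10:122985598-122986297, 5763 bp from Mon2) read 21.8, 25.4, 42.6 and 35.3 CPM in the young, 10.4, 12.3, 13.5, 22.6 and 35.6 CPM in the aged and 7.29, 24.7, 10.97, 18.3 and 20.6 CPM in the aged Ri libraries. Young 3 lay above every other library, but the groups overlapped. It was lower in aged Ri than in young cells (log2 difference -0.86 ± 0.29 (SE), edgeR adjusted p = 0.0479), a call near the threshold that ended with the gene-end covariate (0.994), without the batch term (0.0961), when only the 2 groups were fitted (0.0579) or without aged Ri libraries 1 (0.116), 3 (0.164) and 5 (0.105) or young libraries 1 (0.0915), 2 (0.0757) and 3 (0.157). MiR-142, a microRNA of blood cells, lay under a peak 1220 bp from Tspoap1 with 25.3 ± 4.94 CPM (SD, n = 4) in young, 18.3 ± 4.33 in aged and 23 ± 2.12 in aged Ri cells. The peak over miR-212 stood at 33.5 ± 6.07 CPM (SD, n = 4), 25.1 ± 12.6 and 33.01 ± 14.03 in the same order. That over miR-155 was faint, at 4.59 ± 2.09 CPM (SD, n = 4), 4.74 ± 2.53 and 3.42 ± 1.83.

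The intergenic peaks had 6791 different nearest genes. Of these genes, 3597 had a single such peak and 463 had 5 or more. The most, 20, lay nearest Gm15319. The median distance to the gene was 12310 bp (quartiles 5426.5 and 24669.5 bp), and neighbouring intergenic peaks were a median of 24748 bp apart, although 2975 began within 5 kb of the previous one. Where the strand of the gene was known, 5678 peaks lay upstream and 4874 downstream, so 53.8% were on the upstream side. Annotated non-coding genes covered 3227 peaks (23.9%), and 114 overlapped a tRNA gene. They were dim: the median level was 8.11 CPM (quartiles 6.00 and 13.2), against 9.40 CPM over all peaks and 21.8 CPM at gene ends. Peaks over an lncRNA promoter reached a median of 12.7 CPM and those over a tRNA gene 19.2 CPM. A filter on low counts, applied by group, kept 13160 of them for testing.

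The brightest intergenic peak in young cells (chr17:70963425-70964124) lay 9839 bp from Myl12b, which encodes a myosin regulatory light chain, on the side of the homeobox gene Tgif1. Its level was 319.8, 282, 473 and 346 CPM in the young, 195, 200.4, 121, 212 and 382 CPM in the aged and 156, 434, 131, 249 and 257 CPM in the aged Ri libraries. Aged 5 alone of the aged libraries reached the young range, and aged Ri 2 stood above the other aged Ri libraries. No comparison passed (aged against young edgeR adjusted p = 0.147). The peak between Rimbp3 and Hic2 (chr16:17222019-17222718) was of the same height in young cells and read 338, 272, 382 and 426 CPM in the young, 171, 183, 106, 184 and 434 CPM in the aged and 179.6, 358, 108, 217 and 276 CPM in the aged Ri libraries. In 4 of the 5 aged libraries it lay below all young ones, while aged 5, at 434 CPM, lay above them, and no comparison passed the test (aged against young edgeR adjusted p = 0.0523). Next came a peak between Abcb11 and Dhrs9 with 243 ± 109 CPM (SD, n = 4) in young, 279 ± 19.2 in aged and 278 ± 27.6 in aged Ri cells.

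The Mir22hg promoter peak, printed above, read 169, 186, 202 and 137 CPM in the young, 142, 124, 157, 189.6 and 177 CPM in the aged and 112, 226, 173, 193 and 112 CPM in the aged Ri libraries. All 3 groups overlapped, and the aged against young difference was log2 -0.10 ± 0.22 (SE) (edgeR adjusted p = 0.82). The Chaserr promoter peak stood at 171 ± 34.9 CPM (SD, n = 4), 134 ± 35.3 and 130.5 ± 37.5, with a difference of -0.29 ± 0.22 (SE) for aged against young (edgeR adjusted p = 0.442).

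The intergenic peaks took 16.6, 16.1, 14.9 and 14.8% of the counts of the young libraries, 17.7, 18.5, 17.6, 16.7 and 15.2% of the aged, and 19.3, 16.8, 18.2, 16.2 and 16.5% of the aged Ri libraries. Means were 15.6 ± 0.90% (SD, n = 4), 17.1 ± 1.23% (SD, n = 5) and 17.4 ± 1.30% (SD, n = 5). In 4 of the 5 aged libraries the share lay above every young library, and aged 5 lay inside the young range. Aged 5 is the only aged library of batch 3, and young 4, of the same batch, had the lowest young share. What is particular to aged 5 and what to its batch cannot be told apart. The share at gene ends moved the other way, at 48.7 ± 1.94%, 42.6 ± 4.40% and 42.5 ± 4.55%, with aged 5 at 49.6%. Gene bodies rose too, at 28.1 ± 1.03%, 31.2 ± 2.24% and 31.3 ± 2.39%. Peaks over 50 kb from any gene took 7.145 ± 0.36%, 8.49 ± 0.98% and 8.40 ± 0.89%. The classes divide 1 total, so a lower share at gene ends means higher shares elsewhere. The rise is not particular to the intergenic peaks described here. Shares of counts are given without a test, and the part of a lower gene-end share in the peak results was not tested beyond the covariate fits given with them.

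**Figure D1:**
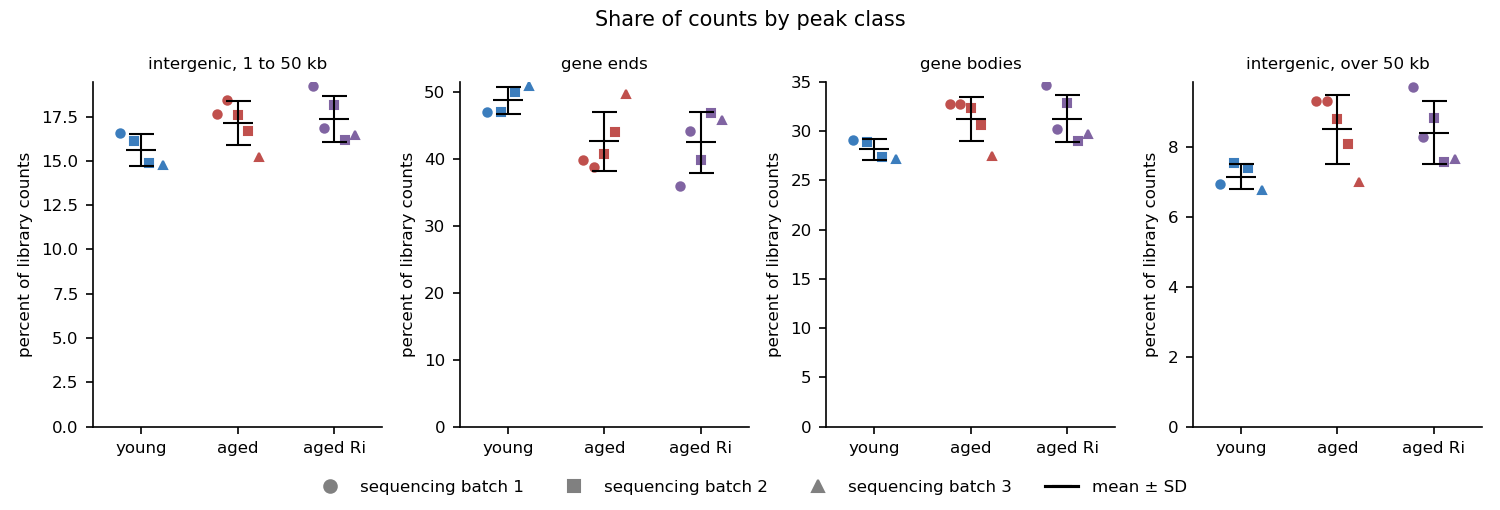
Share of each library's counts (percent, vertical axis) in 4 classes of peaks, by group, with 1 point per library, its shape giving the sequencing batch, and bars for mean ± SD. The intergenic share averages 15.6% in young and 17.1% in aged libraries, while the gene-end share averages 48.7% and 42.6%. Aged 5, the only aged library of batch 3, sits with the young libraries in both.

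The comparison of aged with young cells asks which intergenic sites open or close with age. With edgeR, 597 of the 13160 tested peaks were higher and 141 lower in aged cells at an adjusted p under 0.05. That is 5.61% of them, against 5.72% of all 56235 peaks tested (4.45% higher and 1.26% lower), a share near the background. Their median log2 difference was 0.03, against -0.01 over all peaks and -0.22 at gene ends. The median called peak differed 2.44-fold when higher and 2.43-fold when lower. Of the higher calls, 545 had 1 sign in all 3 batches, and 117 of the lower ones did. The same libraries made the calls, so these signs are a description and not a replication. In batches 1 and 3 each sign rests on 1 young library. With each library's share of counts at gene ends entered as a covariate, 30 of the 597 higher and 0 of the 141 lower peaks were called in the same direction. That share differs between the groups, so its part and that of age cannot be told apart in this fit. Without young 1, 194 were higher and 18 lower, and without young 4 there were 972 and 500. These are the only young libraries of batches 1 and 3. Leaving either out, here and below, also leaves its batch without young cells.

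The widest difference at a well covered peak lay 3027 bp upstream of Hectd4, a HECT-domain ubiquitin ligase gene (chr5:121215787-121216486). The peak gave 3.55, 1.37, 2.84 and 3.87 CPM in the young, 30.5, 30.5, 31.6, 26.7 and 14.7 CPM in the aged and 18.7, 11.9, 19.7, 15.1 and 10.5 CPM in the aged Ri libraries. Every aged and every aged Ri library stood above all young ones, and aged 5 was the lowest of the aged. Aged cells were 8.04-fold higher than young (log2 3.01 ± 0.33 (SE), edgeR adjusted p = 1.81e-06). Well covered means a mean of at least 20 counts over all 14 libraries, which a peak can reach through its high groups alone. Here young 2 and young 3 lay below 3 counts, which are 2.06 and 4.26 CPM at their depths, so the size of the fold is uncertain. A peak 26122 bp upstream of Wars2, which encodes the mitochondrial tryptophanyl-tRNA synthetase, rose too (chr3:99113286-99113985). Its values were 4.00, 2.06, 1.42 and 9.19 CPM in the young, 32.9, 30.5, 59.03, 39.7 and 24.5 CPM in the aged and 25.5, 17.03, 21.6, 17.3 and 25.5 CPM in the aged Ri libraries, with no overlap between young and either aged group, and a 7.90-fold difference (log2 2.98 ± 0.35 (SE), edgeR adjusted p = 7.08e-06). Its young 3 value also lay below 3 counts (4.26 CPM), so this fold is uncertain in size too.

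Near Ipo5, an importin that carries proteins into the nucleus, a peak 7682 bp upstream (chr14:120888459-120889158) read 3.11, 4.12, 2.84 and 4.35 CPM in the young, 28.1, 7.62, 28.6, 21.2 and 11.6 CPM in the aged and 23.4, 25.5, 44.2, 24.4 and 22.2 CPM in the aged Ri libraries. Aged 2 and aged 5 were the lowest of the aged libraries but stayed above every young one. Young 3 was again below 3 counts (4.26 CPM). The rise was 4.90-fold (log2 2.29 ± 0.37 (SE), edgeR adjusted p = 0.000192). Similar rises without overlap were seen near Pip5k1b, a kinase gene of PIP2 synthesis, with 5.42 ± 3.04 CPM (SD, n = 4) in young and 32.9 ± 16.7 CPM (SD, n = 5) in aged cells (log2 2.65 ± 0.35 (SE), edgeR adjusted p = 2.45e-05). The peak near Trhr, the thyrotropin-releasing hormone receptor gene, went from 3.09 ± 0.952 CPM (SD, n = 4) to 19.7 ± 6.54 CPM (SD, n = 5) (log2 2.51 ± 0.35 (SE), edgeR adjusted p = 2.74e-05). Young 3 lay below 3 counts there too (4.26 CPM), so the size of that fold is uncertain. Between Rusf1 and Rgs10 the levels were 9.92 ± 2.24 CPM (SD, n = 4) and 45.2 ± 18.4 CPM (SD, n = 5) (log2 2.18 ± 0.27 (SE), edgeR adjusted p = 7.08e-06). A peak in the span of the non-coding gene Sox1ot, 28390 bp from Sox1, rose from 4.86 ± 1.96 CPM (SD, n = 4) to 21.7 ± 4.63 CPM (SD, n = 5) (log2 2.24 ± 0.30 (SE), edgeR adjusted p = 2.01e-05).
These peaks and those near Hectd4, Wars2 and Ipo5 passed in every alternative fit run, with the gene-end covariate and with each library left out. Another peak, 2253 bp from Mettl25, held no count in young 3, which at that depth allows up to 4.26 CPM, and rose from 5.55 ± 4.81 CPM (SD, n = 4) to 30.8 ± 11.2 CPM (SD, n = 5) (log2 2.28 ± 0.38 (SE), edgeR adjusted p = 0.00069). With the covariate its edgeR adjusted p was 0.067.

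Nupr1, a chromatin-associated stress response gene that is often found raised in aged stem cells, had the brightest of these peaks. It covered the whole Gm39087 promoter window printed above and lay 1086 bp from the end of Nupr1 (chr7:126621461-126622160). The libraries read 10.7, 24.7, 25.6 and 26.1 CPM in the young, 67.4, 78.5, 101, 82.8 and 38.3 CPM in the aged and 43.7, 45.1, 51, 43.9 and 39.2 CPM in the aged Ri libraries. All aged values were above all young values, and every aged Ri library lay between the highest young library and the mean of the aged. The rise with age was 3.41-fold (log2 1.77 ± 0.26 (SE), edgeR adjusted p = 5.64e-05) and held in every alternative. The Gm3331 promoter peak, 31321 bp from Ets1, a transcription factor gene of lymphoid and endothelial cells, rose from 4.04 ± 0.830 CPM (SD, n = 4) to 13.1 ± 3.85 CPM (SD, n = 5) (log2 1.62 ± 0.35 (SE), edgeR adjusted p = 0.00394), with an adjusted p of 0.216 in the covariate fit. The Snhg20 promoter peak, nearest Sec14l1, went down, from 30.2 ± 2.82 CPM (SD, n = 4) to 17.99 ± 3.57 CPM (SD, n = 5) and 14.6 ± 2.66 in aged Ri cells. Its aged against young difference (-0.78 ± 0.23 (SE), edgeR adjusted p = 0.0418) ended with the gene-end covariate (0.381), without the batch term (0.0773), with the replicate block (0.153) or without aged libraries 1 (0.0745), 2 (0.0569), 3 (0.15) and 5 (0.121) or young libraries 1 (0.123), 2 (0.114), 3 (0.0522) and 4 (0.0531). The replicate block, explained below, groups libraries by their number in place of the batch term. These numbers did not pair young with aged libraries, so a call lost with it has that limit, here and below. Over all lncRNA promoter peaks, 14 of 454 tested were higher and 7 lower, 4.63% against 5.72% of all peaks.

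**Figure D2:**
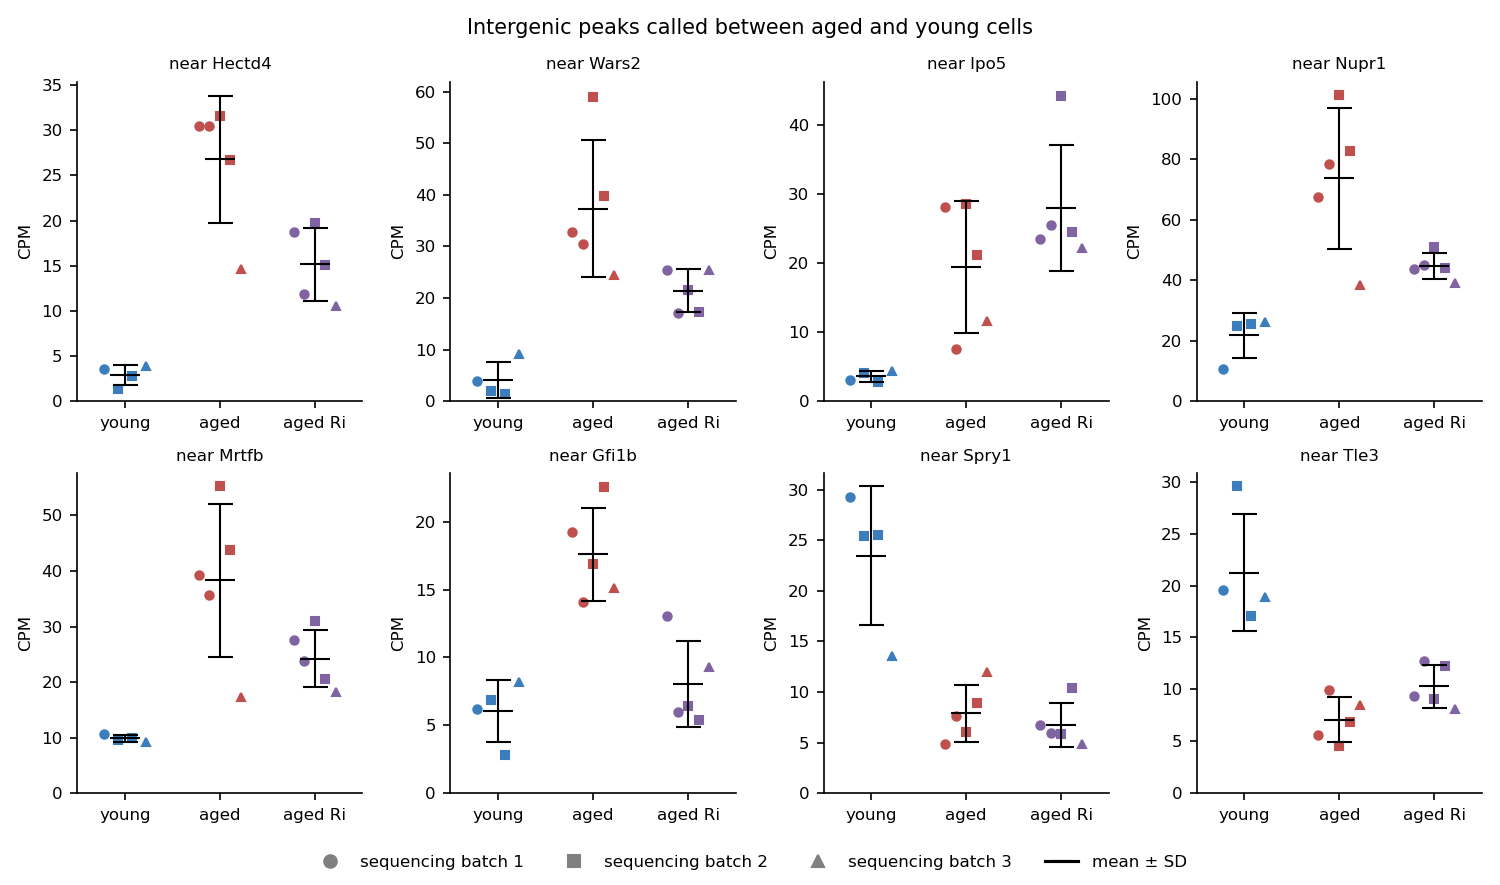
CPM (vertical axes, starting at 0) of 8 intergenic peaks in each library by group, with 1 point per library shaped by sequencing batch and bars for mean ± SD. The first 6 peaks are higher in aged than in young libraries and the last 2 lower, and aged 5 is the lowest aged library at the Hectd4, Wars2, Nupr1 and Mrtfb peaks.

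Transcription factor genes of stem cells and lineages had 82 intergenic peaks near 27 of the 36 listed genes. Each list of this comparison is to be read beside the shares over all peaks tested, 4.45% higher and 1.26% lower. Of 81 factor peaks tested, 4 were higher and 1 lower in aged cells, with a median log2 difference of 0.09. The clearest rise lay 6744 bp from Gfi1b, a repressor of the erythroid and megakaryocytic lineages (chr2:28602007-28602706), which read 6.22, 6.87, 2.84 and 8.22 CPM in the young, 19.2, 14.1, 16.9, 22.6 and 15.1 CPM in the aged and 13.02, 5.96, 6.46, 5.39 and 9.30 CPM in the aged Ri libraries. Young 3 lay below 3 counts (4.26 CPM), and the aged libraries stood above all young and all aged Ri libraries. The difference was 1.44 ± 0.32 (SE) (edgeR adjusted p = 0.00557), and it was not called with the gene-end covariate (0.448) or without young library 1 (0.0529). Near Gata2, a factor of stem cell maintenance, a pair of neighbouring upstream peaks had different results. The weaker (chr6:88190290-88190989) rose from 4.46 ± 1.11 CPM (SD, n = 4) to 12.1 ± 3.12 CPM (SD, n = 5) (log2 1.36 ± 0.35 (SE), edgeR adjusted p = 0.0162). Its call ended with the gene-end covariate (0.648) or without aged library 3 (0.0875) or young library 1 (0.0642). Its young 3 value (2.84 CPM) lay below 3 counts (4.26 CPM). The stronger (chr6:88189486-88190185) stood at 16.1 ± 3.15 CPM (SD, n = 4) and 18.9 ± 3.57 CPM (SD, n = 5) (edgeR adjusted p = 0.531). The 1 lower peak, named after its values were seen, lay near Zfpm1, the gene of the GATA1 cofactor FOG1 (log2 -1.22 ± 0.37 (SE), edgeR adjusted p = 0.0464).

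A peak near Lmo2, which encodes a bridging protein of the TAL1 complex, went from 19.4 ± 6.50 CPM (SD, n = 4) to 33.4 ± 9.65 CPM (SD, n = 5) (log2 0.86 ± 0.25 (SE), edgeR adjusted p = 0.0334), but was not called with the gene-end covariate (0.746), without the batch term (0.106), with the replicate block (0.0664) or without aged libraries 1 (0.0556), 2 (0.0749) and 3 (0.165) or young libraries 1 (0.238), 2 (0.0702) and 3 (0.0837). The single intergenic peak near Mecom, a stem cell factor, stood at 9.59 ± 2.91 CPM (SD, n = 4), 17.5 ± 1.58 and 15.96 ± 2.58 and passed only just (edgeR adjusted p = 0.0495). It was not called by DESeq2's Wald test (0.0641), with DESeq2 size factors (0.0563), with the gene-end covariate (0.648), with loess offsets (0.0799), without the batch term (0.0925), without the filter on low counts (0.0507), when only the 2 groups were fitted (0.0681), with the replicate block (0.0973) or without aged libraries 1 (0.112), 2 (0.0922), 3 (0.114) and 4 (0.0692) or young libraries 1 (0.296), 2 (0.0965) and 3 (0.0934). The brightest peaks near the other factors did not pass in any of the 3 comparisons. With the replicate block described below, the Myb peak was lower in aged Ri than in aged cells (log2 -0.89, edgeR adjusted p = 0.0135). Near Tal1 the levels were 28.9 ± 15.9 CPM (SD, n = 4), 31.9 ± 9.89 and 28.8 ± 7.78 in young, aged and aged Ri cells. Near Spi1, the myeloid and lymphoid master factor, they were 21.9 ± 8.32 CPM (SD, n = 4), 15.8 ± 8.57 and 12.8 ± 5.57. Near Meis1 they were 10.6 ± 2.42 CPM (SD, n = 4), 17.01 ± 1.43 and 14.6 ± 2.07, near Myb 9.06 ± 2.99, 14.2 ± 2.14 and 7.61 ± 1.67, near Cebpa 11.9 ± 4.39, 16.7 ± 5.11 and 18.3 ± 5.85, and near Runx1 14.7 ± 10.2, 8.49 ± 3.72 and 5.89 ± 4.46 CPM. Runx1 had the widest spread, with young 1 at 28.0 and young 4 at 3.39 CPM.

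Stem cell receptor and niche genes had 40 tested peaks near 13 of 26 listed genes, of which 3 were higher and 0 lower with age. The peak near Procr, the endothelial protein C receptor that marks LT-HSCs, read 7.99, 14.4, 7.10 and 16.9 CPM in the young, 31.3, 19.9, 33.8, 27.4 and 15.1 CPM in the aged and 23.9, 22.1, 33.9, 26.2 and 27.5 CPM in the aged Ri libraries. All aged and aged Ri libraries but aged 5 lay above every young library. The rise was 2.11-fold (log2 1.07 ± 0.28 (SE), edgeR adjusted p = 0.0177), and it was not called with the gene-end covariate (0.585) or without aged libraries 1 (0.0599) and 3 (0.0807) or young libraries 1 (0.149) and 3 (0.0657). Downstream of Slamf1, which encodes CD150, the level rose from 2.31 ± 0.803 CPM (SD, n = 4) to 7.10 ± 2.47 CPM (SD, n = 5) (log2 1.60 ± 0.41 (SE), edgeR adjusted p = 0.0167), not called with the gene-end covariate (0.417) or without aged library 3 (0.0999) or young libraries 1 (0.0549) and 2 (0.0818). The third lay near Angpt1, a TIE2 ligand gene (log2 1.16 ± 0.33 (SE), edgeR adjusted p = 0.0287). Counts were present at the Procr and Slamf1 peaks in all 14 libraries. At Slamf1, however, young 2 (1.37 CPM) and young 3 (2.84 CPM) lay below 3 counts, which are 2.06 and 4.26 CPM at their depths. Of the genes used in the sort, Kit had 4 intergenic peaks, Ly6a (which encodes Sca1) 2, Cd34 6 and Flt3 none.

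Genes often raised in aged stem cells had 30 tested peaks with 2 higher and 0 lower and a median log2 difference of 0.36, against 0.03 for the intergenic set. The list was chosen with ageing in mind and is not independent evidence. Besides Nupr1, a peak near Cavin2, a caveolar protein gene, rose from 6.98 ± 2.08 CPM (SD, n = 4) to 16.8 ± 5.71 CPM (SD, n = 5) (log2 1.25 ± 0.31 (SE), edgeR adjusted p = 0.0128), not called with the gene-end covariate (0.421) or without aged library 3 (0.0556) or young libraries 1 (0.119) and 2 (0.0665). None of 11 peaks near megakaryocyte and platelet genes was called, with a median of 0.28. The 10 tested peaks near non-haematopoietic control genes had a median of 0.29, so shifts of this size are not particular to these lists.

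RhoA and actin genes had 40 tested peaks, of which 4 were higher and 0 lower in aged cells. Upstream of Rock2, the kinase that relays RhoA to myosin, the peak at chr12:16866109-16866808 read 11.6, 24.1, 15.6 and 18.9 CPM in the young, 36.1, 38.1, 69.2, 36.3 and 18.7 CPM in the aged and 26.6, 37.5, 53.9, 27.7 and 20.2 CPM in the aged Ri libraries. All aged libraries but aged 5 lay above every young one. The difference was 1.11 ± 0.28 (SE) (edgeR adjusted p = 0.0153), not called with the gene-end covariate (0.629) or without aged library 3 (0.102) or young libraries 1 (0.139) and 3 (0.0588). A second peak near Rock2, named after its values were seen, differed by 0.82 ± 0.25 (SE) (edgeR adjusted p = 0.0407). A peak upstream of Cdc42, a small GTPase whose activity is known to rise in aged stem cells, went from 6.21 ± 0.981 CPM (SD, n = 4) to 15.8 ± 6.96 CPM (SD, n = 5) (log2 1.25 ± 0.34 (SE), edgeR adjusted p = 0.0221), not called with the gene-end covariate (0.629) or without aged libraries 1 (0.0873) and 3 (0.057) or young library 1 (0.191). The fourth, near Baiap2, is described with the drug-treated cells and rose from 29.7 ± 12.5 CPM (SD, n = 4) to 54.5 ± 20.8 CPM (SD, n = 5) (log2 0.96 ± 0.23 (SE), edgeR adjusted p = 0.0106), not called with the gene-end covariate (0.299), without the batch term (0.0943) or without aged library 3 (0.057) or young library 1 (0.116).

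SRF and YAP/TAZ genes had 23 tested peaks, 2 higher and 0 lower, both near Mrtfb, the coactivator that actin holds back from SRF. The clearer one lay 22623 bp upstream (chr16:13232734-13233433) and read 10.7, 9.62, 9.94 and 9.19 CPM in the young, 39.3, 35.7, 55.3, 43.8 and 17.4 CPM in the aged and 27.6, 23.8, 30.99, 20.5 and 18.2 CPM in the aged Ri libraries. Every aged library was above every young one and the young libraries differed little. The rise of 3.59-fold (log2 1.84 ± 0.26 (SE), edgeR adjusted p = 3.78e-05) passed in all alternatives. The other Mrtfb peak differed by 0.99 ± 0.26 (SE) (edgeR adjusted p = 0.0195).

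Stress genes had 36 tested peaks, 2 higher and 0 lower. The peak downstream of Dnajb1, a heat shock co-chaperone gene, rose from 8.42 ± 4.81 CPM (SD, n = 4) to 24.3 ± 8.98 CPM (SD, n = 5) in aged cells (log2 1.74 ± 0.28 (SE), edgeR adjusted p = 0.000205) and passed in every alternative. Near Nqo1, an NRF2 target that reduces quinones, it rose from 7.47 ± 3.16 CPM (SD, n = 4) to 19.5 ± 9.92 CPM (SD, n = 5) (log2 1.35 ± 0.31 (SE), edgeR adjusted p = 0.00756), not called with the gene-end covariate (0.535), without the batch term (0.0517) or without aged library 3 (0.072) or young library 1 (0.115). NF-kB and inflammation genes had 67 tested peaks, 2 higher and 1 lower. The higher peak upstream of Il1b, the interleukin-1 beta gene, went from 5.99 ± 2.88 CPM (SD, n = 4) to 16.6 ± 8.01 CPM (SD, n = 5) (log2 1.56 ± 0.32 (SE), edgeR adjusted p = 0.00241) and failed only with the covariate (0.242). The other higher peak lay near Tnip3 (log2 1.32 ± 0.29 (SE), edgeR adjusted p = 0.00539) and the lower one near Tnfaip3, which encodes the NF-kB inhibitor A20 (log2 -1.11 ± 0.27 (SE), edgeR adjusted p = 0.0114). A peak 1203 bp from Prf1, the perforin gene of cytotoxic lymphocytes, rose from 10.97 ± 1.58 CPM (SD, n = 4) to 25.5 ± 6.74 CPM (SD, n = 5) (log2 1.25 ± 0.28 (SE), edgeR adjusted p = 0.00553; 0.282 with the covariate). It was 1 of 2 higher among 23 peaks near T and NK genes, the other lying near Klrb1c (log2 1.23 ± 0.31 (SE), edgeR adjusted p = 0.0157). The summed level of those 23 peaks was 289 to 354 CPM in young and 315 to 389 CPM in aged libraries. Cd3d, Cd3e, Cd3g, Cd4, Cd8a, Lck, Trac and Ncr1 had no such peak, and the part of T and NK cells in this result was not tested.

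Erythroid genes had 9 tested peaks, 2 of them higher in aged cells, and their summed level was 81.3 to 126 CPM in young, 129 to 223 CPM in aged and 141 to 197 CPM in aged Ri libraries, with no overlap between young and the others. The peak upstream of Rhag, a red cell membrane protein gene, went from 11.1 ± 5.46 CPM (SD, n = 4) to 30.5 ± 13.6 CPM (SD, n = 5) (log2 1.44 ± 0.33 (SE), edgeR adjusted p = 0.00966), not called with the gene-end covariate (0.507) or without aged library 3 (0.061) or young library 1 (0.0986). Hba-a1, Hbb-bs, Klf1, Alas2 and Epor had no intergenic peak, and the part of erythroid cells was not tested. Endothelial and stromal genes had 2 higher of 26, near Kdr (log2 1.29 ± 0.34 (SE), edgeR adjusted p = 0.0178) and Col1a2 (log2 1.22 ± 0.35 (SE), edgeR adjusted p = 0.0313). Myeloid genes had 0 calls among 25 peaks (median log2 difference -0.06), and non-haematopoietic control genes 0 among 10 (median 0.29).

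Fewer peaks were lower in aged cells. Downstream of Spry1, which encodes a brake on receptor tyrosine kinase signalling, a peak at chr3:37675016-37675715 read 29.3, 25.4, 25.6 and 13.5 CPM in the young, 4.81, 7.62, 6.01, 8.90 and 12.02 CPM in the aged and 6.77, 5.96, 5.81, 10.4 and 4.85 CPM in the aged Ri libraries. Young libraries were all above every aged and aged Ri library. Aged cells were 2.85-fold lower (log2 -1.51 ± 0.30 (SE), edgeR adjusted p = 0.00183). Upstream of Tle3, a Groucho corepressor gene, the peak at chr9:61321984-61322683 fell from 21.2 ± 5.63 CPM (SD, n = 4) to 7.08 ± 2.18 CPM (SD, n = 5) without overlap (log2 -1.60 ± 0.29 (SE), edgeR adjusted p = 0.000699). Upstream of Notch1, the receptor of T cell commitment, the level fell from 37.9 ± 9.04 CPM (SD, n = 4) to 19.1 ± 4.30 CPM (SD, n = 5) (log2 -1.01 ± 0.24 (SE), edgeR adjusted p = 0.0103). With the gene-end covariate, the edgeR adjusted p was 0.484 for Spry1, 0.125 for Tle3 and 0.387 for Notch1, and the Notch1 call also ended without young 1 (0.0975) and with the replicate block (0.0622). Only 4 lower calls held under every left-out library: these of Spry1 and Tle3, and those near Mreg (log2 -2.27 ± 0.39 (SE), edgeR adjusted p = 0.000457) and Serpinh1, a collagen chaperone gene (log2 -1.86 ± 0.34 (SE), edgeR adjusted p = 0.000835), which had fewer counts and were picked once their values were known.

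Among immediate early and AP-1 genes, 91 peaks were tested, of which 1 was higher and 5 lower with age. The higher lay near Btg2 (log2 0.99 ± 0.27 (SE), edgeR adjusted p = 0.0248). The lower lay near Klf2, near Bach1 (2 peaks), near Fos (log2 -0.80 ± 0.22 (SE), edgeR adjusted p = 0.0271) and near Jund (log2 -0.82 ± 0.23 (SE), edgeR adjusted p = 0.0277), the last of which, like the Fos and the second Bach1 peak, was named after its values were seen. The peak 7577 bp upstream of Klf2, a Krüppel-like factor of quiescence and lymphocyte trafficking (chr8:72310786-72311485), read 25.8, 5.50, 18.5 and 4.35 CPM in the young, 3.21, 7.03, 2.26, 5.47 and 1.34 CPM in the aged and 9.89, 6.81, 3.23, 8.99 and 3.64 CPM in the aged Ri libraries. Young 1 and young 3 were high, while young 2 and young 4 lay within the aged range. The fall was -1.87 ± 0.40 (SE) (edgeR adjusted p = 0.00375). Upstream of Bach1, a repressor of haem and oxidative stress genes, the young libraries read 47.1, 17.9, 28.4 and 11.1 CPM and the aged mean was 11.2 ± 2.48 CPM (SD, n = 5) (log2 -1.22 ± 0.32 (SE), edgeR adjusted p = 0.0189). Near Car13, a carbonic anhydrase gene, the young values were 40.9, 17.9, 17.04 and 8.22 CPM against 8.70 ± 4.18 CPM (SD, n = 5) in aged cells (log2 -1.39 ± 0.31 (SE), edgeR adjusted p = 0.00512). The peak upstream of Mcl1, a survival gene of the BCL2 family, gave 37.3, 13.1, 26.97 and 6.29 CPM in young and 6.46 ± 2.49 CPM (SD, n = 5) in aged libraries (log2 -1.64 ± 0.33 (SE), edgeR adjusted p = 0.00187). At Col27a1, a collagen gene, young libraries gave 43.97, 19.9, 44.01 and 14.99 CPM and aged ones averaged 11.96 ± 2.60 CPM (SD, n = 5) (log2 -1.33 ± 0.30 (SE), edgeR adjusted p = 0.00622).
These calls ended with the gene-end covariate (0.511), without the batch term (0.0588) or without young library 1 (0.123) for Klf2, with the gene-end covariate (0.71), with the replicate block (0.112) or without aged libraries 1 (0.0584), 2 (0.0699) and 3 (0.0795) or young libraries 1 (0.365) and 3 (0.0505) for Bach1, with the gene-end covariate (0.496), with the replicate block (0.203) or without young library 1 (0.164) for Car13, with the gene-end covariate (0.514), with the replicate block (0.0845) or without young library 1 (0.0766) for Mcl1 and with the gene-end covariate (0.403) or without young library 1 (0.124) for Col27a1. Young 1 was also highest for B and lymphoid marker genes. Their 13 intergenic peaks, near 9 of the 16 listed genes, summed to 358, 162, 212 and 78.8 CPM in young 1 to 4, to 92.1 to 168 CPM in aged and to 78.8 to 118 CPM in aged Ri libraries. Cd79a, Pax5, Rag1, Rag2, Vpreb1, Bank1 and Cd22 had no intergenic peak. Young 1, 3, 2 and 4 took this order at the Klf2, Bach1 and Mcl1 peaks too, but not at the Car13 and Col27a1 peaks. At Car13 young 2 lay above young 3, and at Col27a1 young 3 was highest. The part of other cell types in these results was not tested. The listed peaks given above with a difference and no left-out values, near Zfpm1, Angpt1, Rock2 and Mrtfb (the second peaks), Btg2, Fos, Bach1 (the second peak), Jund, Tnip3, Tnfaip3, Klrb1c, Kdr and Col1a2, lost the aged against young call when 1 or more single libraries were left out and with the covariate.

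**Figure D3:**
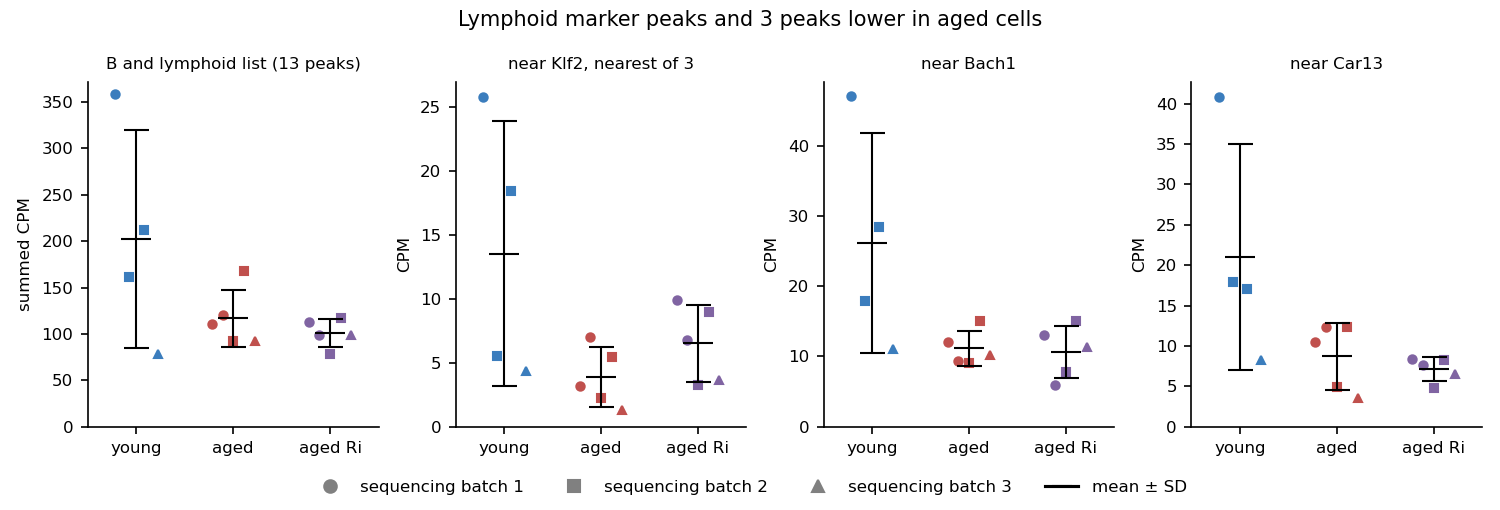
Summed CPM of the 13 intergenic peaks near B and lymphoid marker genes (first panel) and CPM of 3 peaks lower in aged cells (other panels), by library and group, with points shaped by sequencing batch and bars for mean ± SD. Young 1 is the highest library in all 4 panels, at 358 summed CPM and at 25.8, 47.1 and 40.9 CPM.

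Rhosin treatment of aged cells asks which sites move when RhoA is inhibited. By edgeR, 70 of the 13160 tested peaks were higher and 13 lower in aged Ri than in aged cells, 0.631% in all against 0.446% of all peaks (0.375% higher and 0.0711% lower). At an unadjusted p under 0.05 there were 1616. Aged and aged Ri libraries that share a number had correlated deviations (0.137 to 0.645), although aged Ri 4 correlated most with aged 5, and with that number as a block 451 of 11791 intergenic peaks were higher and 220 lower. These are 5.69%, against 4.42% of all peaks in that fit (2.89% higher and 1.53% lower). The block fit used only the libraries of these 2 groups, with the block in place of the batch term. With the batch term and no block, those libraries gave 200 higher and 69 lower. The change from 70 and 13 therefore cannot be put down to the block alone. Libraries of these 2 groups with the same number also share a sequencing batch, and its part in the correlations was not tested. The median called peak differed 2.41-fold when higher and 2.28-fold when lower. The counts rested on single libraries: without aged Ri 3, 4 were higher and 0 lower, and without aged Ri 5 there were 160 higher. No peak was called lower without aged 2 or aged 3.

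The widest rise at a well covered peak lay 7934 bp from Asgr2, an asialoglycoprotein receptor gene, on the side of the lectin gene Mgl2 (chr11:70114121-70114820). It read 17.3, 11, 12.8 and 10.2 CPM in the young, 8.02, 8.79, 7.14, 5.47 and 16.9 CPM in the aged and 19.8, 53.6, 36.5, 33.4 and 22.2 CPM in the aged Ri libraries. Each aged Ri library lay above every aged one, with aged 5 the highest of the aged. The rise was 3.43-fold (log2 1.78 ± 0.29 (SE), edgeR adjusted p = 0.00397). Between Ripk3, the kinase of necroptosis, and Nfatc4, a peak at chr14:55795591-55796290 read 9.77, 9.62, 9.94 and 8.22 CPM in the young, 15.2, 10.5, 15.4, 14.4 and 14.7 CPM in the aged and 38.5, 33.2, 71.01, 47.1 and 29.1 CPM in the aged Ri libraries. The aged Ri libraries were above all others, by 3.05-fold over aged (log2 1.61 ± 0.22 (SE), edgeR adjusted p = 0.000711). Another lay 1717 bp downstream of Arid5a, which encodes an RNA-binding protein that stabilises inflammatory mRNAs (chr1:36325754-36326453). Its values were 24.9, 29.6, 21.3 and 20.3 CPM in the young, 18.4, 18.2, 30.4, 18.5 and 29.4 CPM in the aged and 53.1, 59.6, 133, 73.7 and 46.1 CPM in the aged Ri libraries, with aged Ri 3 far above the rest but every aged Ri library above all untreated ones. The rise was 3.03-fold (log2 1.60 ± 0.23 (SE), edgeR adjusted p = 0.000741). These 3 calls held in every alternative run, and so did 1 other, near Spty2d1 and named after its values were seen (log2 1.27 ± 0.22 (SE), edgeR adjusted p = 0.00514).

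Other calls ended without aged Ri 3, the deepest library, at a similar difference. Between Tulp1 and Fkbp5, the latter a co-chaperone of steroid receptors, the levels were 13.3 ± 3.47 CPM (SD, n = 5) in aged and 41.5 ± 20.2 CPM (SD, n = 5) in aged Ri cells (log2 1.59 ± 0.27 (SE), edgeR adjusted p = 0.00615; log2 1.35 and adjusted p 0.0566 without aged Ri 3). Upstream of Ttc39b they were 5.35 ± 1.54 CPM (SD, n = 5) and 15.3 ± 3.37 CPM (SD, n = 5) (log2 1.51 ± 0.27 (SE), edgeR adjusted p = 0.0064; log2 1.46 and adjusted p 0.0566 without it). Near Ackr2, a scavenger receptor of chemokines, they were 10.1 ± 1.51 CPM (SD, n = 5) and 27.8 ± 11.1 CPM (SD, n = 5) (log2 1.42 ± 0.24 (SE), edgeR adjusted p = 0.00469; log2 1.19 and adjusted p 0.0615 without it). In all 3 peaks the lowest aged Ri library lay above the highest aged one. The peak near Avpi1 rose from 9.05 ± 3.56 CPM (SD, n = 5) to 23.9 ± 9.51 CPM (SD, n = 5) (log2 1.41 ± 0.26 (SE), edgeR adjusted p = 0.00927; not called without aged library 4 (0.0746) or aged Ri library 3 (0.13)). The peak near Parm1 rose from 6.57 ± 3.87 CPM (SD, n = 5) to 19.9 ± 7.45 CPM (SD, n = 5) (log2 1.67 ± 0.31 (SE), edgeR adjusted p = 0.00927; not called without aged libraries 2 (0.0524), 3 (0.0504) and 4 (0.0713) or aged Ri library 3 (0.114)).

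By group, immediate early and AP-1 genes had 3 higher and 0 lower of 91 peaks, with a median log2 difference of 0.19 against -0.03 for the intergenic set. Over all peaks tested, 0.375% were higher and 0.0711% lower in this comparison. With the replicate block 12 of 84 were higher and 0 lower, against 2.89% and 1.53% of all peaks in that fit. A pair of peaks upstream of Klf2 made 2 of the 3, and the other lay near Klf6 (log2 1.16 ± 0.28 (SE), edgeR adjusted p = 0.0499). The Klf6 call was at the threshold and ended in 13 of 18 alternatives, among them 8 left-out libraries. The farther one (chr8:72295356-72296055, 23007 bp away) read 46.2, 42.6, 42.6 and 39.7 CPM in the young, 41.7, 39.8, 57.1, 37.6 and 43.6 CPM in the aged and 47.9, 113, 125, 98.2 and 59.8 CPM in the aged Ri libraries. Of the aged Ri libraries, aged Ri 1 lay inside the aged range and the others above it. The rise was 1.97-fold (log2 0.97 ± 0.22 (SE), edgeR adjusted p = 0.0324; with the block 0.000758). The middle one, 15216 bp away, went from 5.00 ± 0.941 CPM (SD, n = 5) to 15.3 ± 6.01 CPM (SD, n = 5) without overlap (log2 1.55 ± 0.31 (SE), edgeR adjusted p = 0.0136). The nearest Klf2 peak, which was lower in aged than in young cells, stood at 3.86 ± 2.35 CPM (SD, n = 5) and 6.51 ± 3.03 CPM (SD, n = 5) (edgeR adjusted p = 0.463). Calls ended without the batch term (0.0969) or without aged libraries 1 (0.0844), 2 (0.116), 3 (0.0699) and 4 (0.19) or aged Ri libraries 2 (0.101) and 3 (0.229) for the farther and without aged libraries 2 (0.0658), 3 (0.0648) and 4 (0.0746) or aged Ri libraries 2 (0.0502) and 3 (0.13) for the middle Klf2 peak.

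Stem cell receptor and niche genes had 1 higher and 1 lower of 40. Downstream of Cd9, a tetraspanin of stem cells and platelets, the peak at chr6:125433605-125434304 read 15.5, 17.9, 9.94 and 17.9 CPM in the young, 26.5, 28.1, 16.2, 6.16 and 17.8 CPM in the aged and 47.9, 58.7, 61.98, 38.1 and 31.5 CPM in the aged Ri libraries. Every aged Ri library was above every aged one. The rise was 2.57-fold (log2 1.36 ± 0.25 (SE), edgeR adjusted p = 0.00763), not called without aged libraries 3 (0.0528) and 4 (0.0596) or aged Ri library 3 (0.0566). Upstream of Cd34, whose protein is absent from the sorted LT-HSC surface, the peak at chr1:194927778-194928477 read 9.33, 13.1, 18.5 and 14.5 CPM in the young, 10.4, 19.3, 26.7, 26.01 and 15.1 CPM in the aged and 7.81, 10.2, 9.68, 10.8 and 8.49 CPM in the aged Ri libraries. Aged 1 lay inside the aged Ri range, and the other 4 aged libraries lay above every aged Ri library. The fall was -1.06 ± 0.25 (SE) (edgeR adjusted p = 0.0411; with the block 0.000559), and it was not called without the batch term (0.123) or without aged libraries 2 (0.164), 3 (0.16) and 4 (0.172) or aged Ri libraries 1 (0.0663), 2 (0.0642), 3 (0.295), 4 (0.0974) and 5 (0.0613). RhoA and actin genes, the pathway of the drug's target, had 0 calls among 40 peaks (median 0.15) and SRF and YAP/TAZ genes 0 among 23 (median -0.02). With the block these were 2 higher and 1 lower among 37 for RhoA and actin genes and 0 higher and 1 lower among 21 for SRF and YAP/TAZ genes, the Mrtfb peak. Stress genes had 0 among 36, and NF-kB genes 1 higher of 67, the Ripk3 peak. With the block stress genes had 2 higher and 0 lower of 34, and NF-kB genes 4 higher and 1 lower of 62. In that fit 2.89% of all peaks were higher and 1.53% lower. Factor genes went from 0 higher and 1 lower of 81 to 2 and 2 of 76, and T and NK genes from 0 of 23 to 2 lower of 21. The aged stem cell, erythroid and endothelial lists went from 0 calls to 1 lower each, of 24, 9 and 21.

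The Gm46838 promoter peak, 24054 bp from Rap1a, a small GTPase of adhesion, was the 1 lncRNA promoter peak called among 454. It went from 12.2 ± 3.70 CPM (SD, n = 5) to 27.01 ± 6.13 CPM (SD, n = 5) without overlap (log2 1.12 ± 0.24 (SE), edgeR adjusted p = 0.0241; with the block 9.44e-05). It was not called without the batch term (0.0746) or without aged libraries 1 (0.0762), 2 (0.101), 3 (0.096) and 4 (0.129) or aged Ri libraries 2 (0.0813) and 3 (0.227).

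Of the 13 lower peaks, the brightest named lay near Zfp36l2, which encodes an mRNA decay protein of blood progenitors (chr17:84161208-84161907), and read 69.3, 93.5, 69.6 and 96.2 CPM in the young, 68.2, 89.6, 93.2, 102 and 83.3 CPM in the aged and 34.4, 56.2, 48.7, 44.2 and 50.1 CPM in the aged Ri libraries. All aged Ri libraries were below all aged and all young ones. The fall was 1.88-fold (log2 -0.91 ± 0.19 (SE), edgeR adjusted p = 0.0253). Between Hint1 and Gpx3 the peak at chr11:54884587-54885286 read 9.77, 26.8, 19.9 and 29.5 CPM in the young, 44.1, 35.7, 66.5, 63.6 and 32.1 CPM in the aged and 20.3, 15.3, 26.8, 28.4 and 23.4 CPM in the aged Ri libraries. It was 2.36-fold higher in aged than in young cells (edgeR adjusted p = 0.00197) and 2.09-fold lower in aged Ri than in aged cells (edgeR adjusted p = 0.0209), and the aged Ri libraries lay within the young range. The Gfi1b peak described above had 17.6 ± 3.41 CPM (SD, n = 5) in aged and 8.03 ± 3.17 CPM (SD, n = 5) in aged Ri cells (log2 -1.13 ± 0.27 (SE), edgeR adjusted p = 0.0495). Near Bcl2, the survival gene, the levels were 7.57 ± 1.47 CPM (SD, n = 4) in young, 16.4 ± 5.10 CPM (SD, n = 5) in aged and 7.14 ± 1.72 CPM (SD, n = 5) in aged Ri cells, with edgeR adjusted p = 0.0351 for aged against young and edgeR adjusted p = 0.0366 for aged Ri against aged. The aged libraries are shared by these comparisons.
The calls for aged Ri against aged ended without the batch term (0.0908) or without aged libraries 2 (0.116), 3 (0.0753) and 4 (0.149) or aged Ri libraries 3 (0.123) and 4 (0.0501) for Zfp36l2, without the batch term (0.117) or without aged libraries 1 (0.0707), 2 (0.0675), 3 (0.0912) and 4 (0.105) or aged Ri libraries 2 (0.0522) and 3 (0.133) for Hint1, with DESeq2 size factors (0.0543), without the batch term (0.116), without the filter on low counts (0.0503) or without aged libraries 1 (0.115), 2 (0.096), 3 (0.153) and 4 (0.229) or aged Ri libraries 2 (0.139), 3 (0.316), 4 (0.157) and 5 (0.0685) for Gfi1b and without the batch term (0.0908) or without aged libraries 1 (0.0517), 2 (0.126), 3 (0.153) and 4 (0.172) or aged Ri libraries 2 (0.101), 3 (0.296), 4 (0.0808) and 5 (0.053) for Bcl2. With the replicate block all 4 were called, at edgeR adjusted p = 0.000889, 4.4e-05, 0.00045 and 0.000432. Bcl2 was not called between aged and young cells with the gene-end covariate (0.584), with loess offsets (0.0672), when only the 2 groups were fitted (0.0508) or without aged libraries 2 (0.0806), 3 (0.127) and 4 (0.0636) or young libraries 1 (0.168), 2 (0.142) and 3 (0.0666), and Hint1 with the gene-end covariate (0.221).

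The block also called several of the peaks that had risen with age as lower after Rhosin. Its edgeR adjusted p was 0.00578 for Hectd4 (log2 -0.77), 0.00434 for Wars2 (-0.78), 0.0234 for Nupr1 (-0.66), 0.0282 for Mrtfb (-0.62) and 0.0109 for Prf1 (-0.77). None of these passed in the main fit, which holds all 14 libraries and the batch term. These peaks were chosen for high aged levels, and both comparisons share the aged libraries. The block did not call those near Pip5k1b (log2 -0.49, 0.116) or Sox1 (-0.47, 0.172), nor those near Ipo5 (0.58, 0.0598), Trhr (0.44, 0.178) and Rusf1 (0.14, 0.81), whose differences had the opposite sign, nor Spry1 (0.774) or Tle3 (0.279) among those lower with age. Near Klf6, a Krüppel-like factor of the immediate early class, the peak 15679 bp upstream went from 23.9 ± 6.78 CPM (SD, n = 5) to 36.9 ± 11.96 CPM (SD, n = 5), with edgeR adjusted p = 0.18 without and 0.0179 with the block. Near Ier5 the levels were 6.76 ± 3.52 CPM (SD, n = 5) and 19.1 ± 11.98 CPM (SD, n = 5) (edgeR adjusted p = 0.0544; 5.65e-05 with the block).

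**Figure D4:**
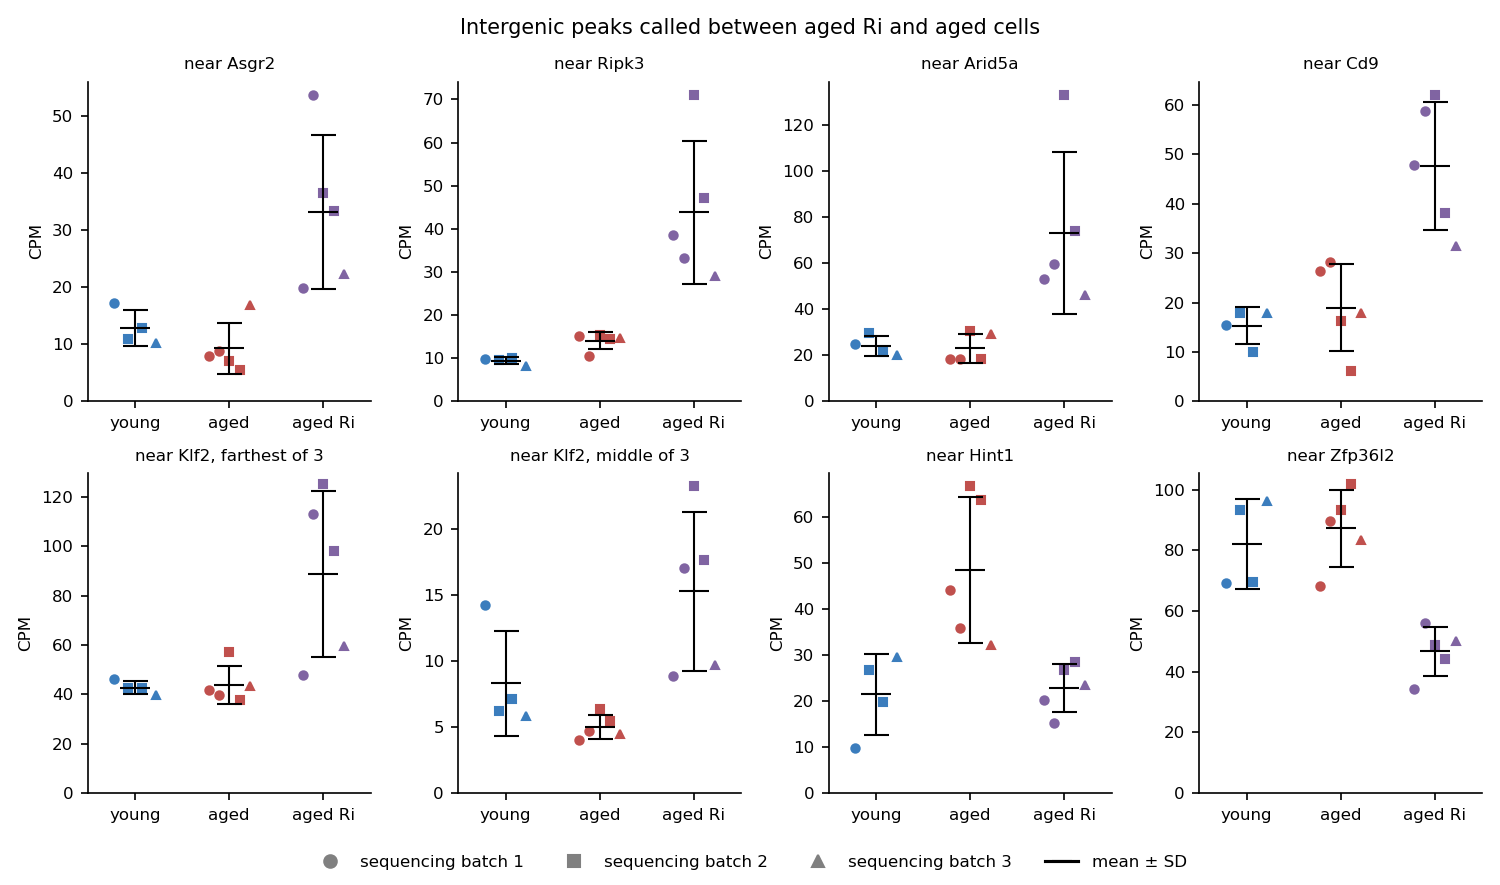
CPM (vertical axes, starting at 0) of 8 intergenic peaks in each library by group, with 1 point per library shaped by sequencing batch and bars for mean ± SD. The first 6 are higher in aged Ri than in aged libraries and the Hint1 and Zfp36l2 peaks lower, and aged Ri 3 is the highest aged Ri library in 5 of the first 6 panels.

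Aged Ri against young cells compares groups that differ in both age and drug. By edgeR 1145 intergenic peaks were higher and 445 lower in aged Ri cells, 12.1% in all against 11.5% of all peaks (7.90% higher and 3.56% lower). The comparison shares the young libraries with that of aged against young, so its calls are not a second test of ageing. With the gene-end covariate 140 were higher and 9 lower. Without aged Ri 3 there were 612 and 111, and without young 4 1402 and 783.

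The widest rise at a well covered peak lay 41090 bp upstream of Pde4b, which encodes a phosphodiesterase that degrades cAMP (chr4:102045543-102046242), and read 2.22, 7.56, 4.26 and 4.35 CPM in the young, 27.3, 18.2, 18.8, 18.5 and 12.02 CPM in the aged and 27.1, 41.7, 66.5, 50.7 and 23.4 CPM in the aged Ri libraries. The young, aged and aged Ri means were each above the last, with no overlap of young with the others. Aged Ri was 8.80-fold above young (log2 3.14 ± 0.32 (SE), edgeR adjusted p = 1.49e-07), aged was 4.06-fold above young (edgeR adjusted p = 0.000294) and aged Ri 2.17-fold above aged (edgeR adjusted p = 0.0241). Upstream of Ccna1, the cyclin A1 gene, the means were 4.86 ± 1.04 CPM (SD, n = 4), 19.9 ± 6.03 and 34.9 ± 16.1 CPM (SD, n = 5) in young, aged and aged Ri cells (aged Ri against young log2 2.81 ± 0.29 (SE), edgeR adjusted p = 2.1e-07). Upstream of Pcif1, an mRNA cap methyltransferase gene, they were 4.33 ± 2.31 CPM (SD, n = 4), 16.4 ± 5.53 and 39.2 ± 21.8 CPM (SD, n = 5) (log2 2.85 ± 0.37 (SE), edgeR adjusted p = 1.83e-05). Downstream of Camk1d, a calcium-dependent kinase gene, they were 6.64 ± 2.04 CPM (SD, n = 4), 25.7 ± 12.3 and 42.3 ± 14.1 CPM (SD, n = 5) (log2 2.56 ± 0.30 (SE), edgeR adjusted p = 1.3e-06). Near Tyk2, a Janus kinase gene of cytokine signalling, they were 5.61 ± 2.37 CPM (SD, n = 4), 17.3 ± 7.04 and 32.3 ± 18.6 CPM (SD, n = 5) (log2 2.54 ± 0.33 (SE), edgeR adjusted p = 5.47e-06). Against aged cells, 3 of these peaks did not pass as fitted but did with the replicate block, near Ccna1 (log2 0.78, edgeR adjusted p = 0.0037), Camk1d (0.72, 0.00827) and Tyk2 (0.87, 0.00158).
These 5 aged Ri against young calls held in every alternative. At the Pcif1 peak young 3 (2.84 CPM) lay below 3 counts (4.26 CPM), so the size of that fold is uncertain. The Pde4b call for aged Ri against aged ended without the batch term (0.0969) or without aged libraries 2 (0.0832), 3 (0.125) and 4 (0.171) or aged Ri libraries 2 (0.0833) and 3 (0.211).

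RhoA and actin genes had 7 higher and 2 lower of 40 peaks in this comparison, against 7.90% higher and 3.56% lower of all peaks. The peak 6153 bp upstream of Baiap2, which encodes an adaptor linking Rac1 and Cdc42 to actin (chr11:119933064-119933763), read 15.1, 45.4, 31.2 and 27.1 CPM in the young, 42.5, 35.7, 87.2, 62.3 and 44.5 CPM in the aged and 66.6, 68.96, 121, 75.5 and 61.05 CPM in the aged Ri libraries. Every aged Ri library was above every young one, and aged Ri 3 was the highest of all. The difference was 1.52 ± 0.23 (SE) (edgeR adjusted p = 5.14e-05) and passed in every alternative. Immediate early and AP-1 genes had 12 higher and 6 lower of 91. The Klf6 peak rose from 16.3 ± 1.99 CPM (SD, n = 4) in young to 36.9 ± 11.96 CPM (SD, n = 5) in aged Ri cells (log2 1.09 ± 0.23 (SE), edgeR adjusted p = 0.00203) and passed in every alternative. The Ier5 peak rose from 5.27 ± 1.57 CPM (SD, n = 4) to 19.1 ± 11.98 CPM (SD, n = 5) (log2 1.82 ± 0.38 (SE), edgeR adjusted p = 0.00184; 0.0909 with the covariate). Stress genes had 8 higher and 0 lower of 36, NF-kB genes 10 and 4 of 67, and erythroid genes 3 and 0 of 9, against 11.5% of all peaks called. With the covariate 1 of the 8, 1 of the 14 and 0 of the 3 were still called, near Dnajb1 and Ripk3. Leaving out single libraries ended 4 of the 8, 8 of the 14 and all 3. The Ripk3 peak was 4.56-fold above young (log2 2.19 ± 0.26 (SE), edgeR adjusted p = 1.36e-06).

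Among lower peaks, that near Crybg2 (chr4:134052505-134053204) was the only one called lower in every alternative and read 23.5, 13.7, 14.2 and 12.6 CPM in the young, 9.62, 14.1, 13.2, 15.1 and 5.79 CPM in the aged and 7.81, 2.55, 5.17, 4.32 and 8.09 CPM in the aged Ri libraries. All aged Ri libraries lay below all young ones, and young 1 stood above the other young libraries. The difference was -1.49 ± 0.32 (SE) (edgeR adjusted p = 0.00212), and against aged cells the block also called it lower (log2 -0.97, edgeR adjusted p = 0.0293). Upstream of Dntt, the terminal transferase gene of lymphoid precursors, the young libraries gave 39.5, 16.5, 19.9 and 9.67 CPM and the aged Ri libraries 14.6, 11.9, 4.52, 7.91 and 7.68 CPM, with young 1 again highest. It was the 1 lower call among 13 peaks near B and lymphoid genes (log2 -1.28 ± 0.32 (SE), edgeR adjusted p = 0.00762) and ended with the gene-end covariate (0.509), with the replicate block (0.0753) or without young library 1 (0.126).

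Brighter peaks were called more often, mainly as higher. Split by mean CPM into 5 classes of equal size, the tested intergenic peaks were called between aged and young cells in 0.798, 2.81, 3.69, 6.95 and 13.8% of cases from the dimmest to the brightest class, whose median levels were 5.12 and 24.6 CPM. For aged Ri against aged cells the shares were 0, 0.038, 0.266, 1.22 and 1.63%. Lower calls alone between aged and young cells were 0.266, 1.18, 1.44, 1.25 and 1.22%, without a rise beyond the middle class. The mean CPM is over all 14 libraries, most of them aged or aged Ri. A peak higher in those groups is thereby moved toward a brighter class. At distances of 1 to 5, 5 to 10, 10 to 20 and 20 to 50 kb, 5.53, 6.13, 4.80 and 5.95% were called between aged and young cells. Upstream peaks were called in 5.99% and downstream peaks in 5.44% of cases. Peaks over 50 kb from any gene were called in 10.1% and those in gene bodies in 6.41%, against 5.61% for the intergenic peaks within 50 kb and 2.64% at gene ends. Those other classes, here and above, also hold peaks on X and Y, which the intergenic set leaves out. Peaks over tRNA genes, with a median of 19.2 CPM, had 1 of 113 called between aged and young, 0 between aged Ri and aged and 3 between aged Ri and young. At an unadjusted p under 0.05 these were 4, 4 and 9. No test compares these subsets.

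**Figure D5:**
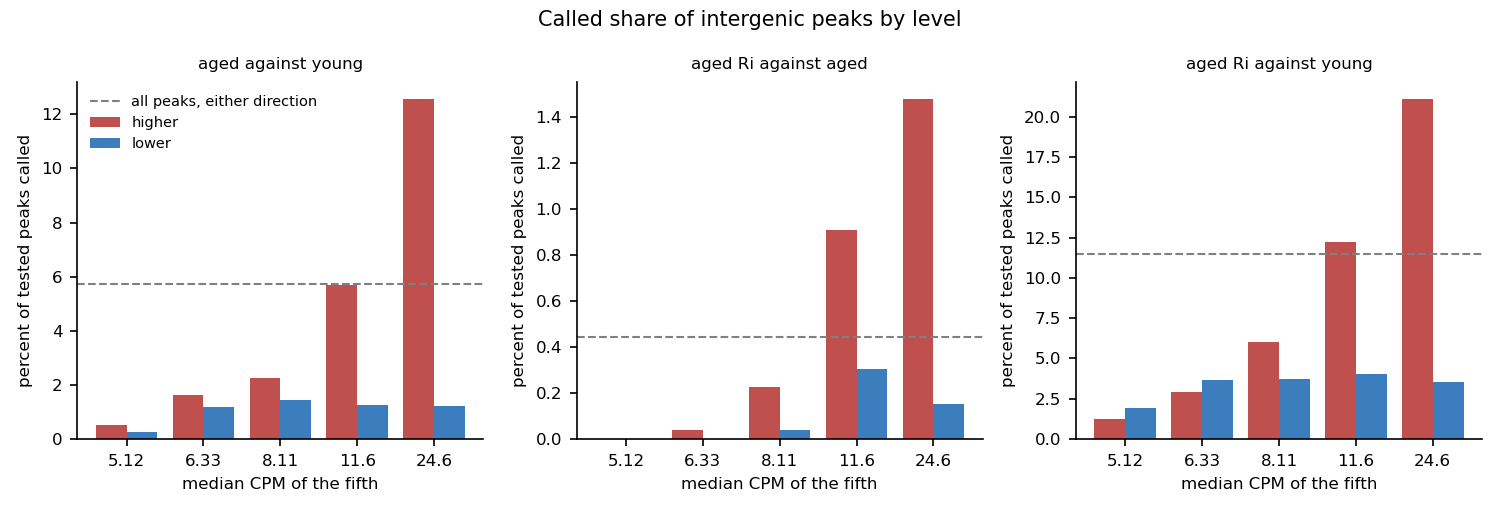
Percent of tested intergenic peaks called higher (red) or lower (blue) by edgeR in each of 5 classes of mean level, with the median CPM of the class on the horizontal axis, for each comparison. Dashed lines give the called share of all peaks in either direction (5.72, 0.446 and 11.5%), and higher calls increase from the dimmest to the brightest class in all 3 panels.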

How the data were processed

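The authors deposited raw read counts for 57289 consensus peaks in 14 libraries, with the peak coordinates on mm10. FeatureCounts, R 4.2.0 and SAMtools 1.14 are named in the submitters' processing notes. The aligner, peak caller, duplicate handling and any Tn5 shift are not given in the sources used here, and 1 peak list serves all libraries, so a site open in few cells may be missing from it.

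Peaks were placed against RefSeq gene spans (GRCm38.p6) with Python 3.11.15, numpy 2.4.6 and pandas 2.3.3. Counts of all 14 libraries and all autosomal and sex-chromosome peaks were fitted together with edgeR 4.0.16 (TMM scaling, filterByExpr by group, quasi-likelihood test with group and sequencing batch), with Benjamini-Hochberg adjustment over 56235 peaks. The values printed as CPM use the TMM library sizes. A prior count of 2 was used only for the log2 CPM behind the batch signs and the pairing check. Fitted log2 differences used edgeR's default prior. Alternatives used DESeq2 1.42.0, limma 3.58.1 loess offsets, other filters, designs, distance limits and left-out libraries. The fits were tested on simulated data in R 4.3.3. Figures used matplotlib 3.10.9.

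The library numbers were checked for pairing from deviations at 25903 peaks. Aged and aged Ri libraries sharing a number correlated at 0.365, 0.137, 0.645, 0.276 and 0.544, so the numbers were taken to pair these groups, although aged Ri 4 correlated best with aged 5. Batch was not removed in this check, and each such pair shares a sequencing batch. The part of batch in these correlations was not tested, and the labels do not state a pairing. Fits with the number as a block held only the libraries of the 2 groups compared and no batch term. The result with the number as a block is given beside the lists and printed peaks where it changes a call.

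Named peaks were called ones with a mean count of at least 20 and 1 sign in all 3 batches, at most 12 per direction, the 10 brightest in young cells, up to 3 called per gene list, and the brightest near listed factors, and only part of these is printed. Peaks over microRNAs and the lncRNA promoters shown were added after their values were seen. The regions, gene lists and tests were chosen with earlier results of these data known. A called peak near an erythroid gene is counted but not reported here.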

Additional observations from a re-analysis of the deposited data

Results flagged for a closer look

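In 14 of 231 groups of 4 or 5 libraries at named peaks, 1 library stood apart from the others by a Dixon gap test at its 95% critical value, and chance gives about 1 in 20. Aged 5, the only aged library of sequencing batch 3, was that library at 5 peaks. It was high near Rimbp3 at 433.7 CPM (others 106.4 to 184.1), near Asgr2 at 16.92 (5.475 to 8.787) and near Rap1a at 18.7 (9.625 to 11.28), and low near Klf6 at 12.02 (24.86 to 28.06) and near Hectd4 at 14.7 (26.69 to 31.58). Its gene-end share of counts, 49.6%, was the highest of the aged libraries. The parts of this share and of the batch in these values were not tested.

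Young 1 was low at the Nupr1 peak, at 10.66 CPM (others 24.74 to 26.12), and high near Crybg2 at 23.54 (12.58 to 14.2) and at the middle Klf2 peak at 14.21 (5.804 to 7.099). Young 3 was high near Pip5k1b at 9.938 CPM (3.436 to 4.441). Among the aged libraries, aged 2 was low near Ripk3 at 10.54 CPM (14.37 to 15.41) and aged 1 high near Cdc42 at 28.07 (11.63 to 14.29). Aged Ri 3 was high near Baiap2 at 120.7 CPM (61.05 to 75.52) and near Ipo5 at 44.22 (22.24 to 25.54), and aged Ri 4 near Spi1 at 22.65 (9.365 to 11.3).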

How the results depend on the processing

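Between aged and young cells, the 597 higher and 141 lower intergenic peaks became 30 and 1 with the gene-end covariate, 367 and 55 without the batch term, 395 and 88 within 20 kb, and 491 and 90 with the replicate block. With loess offsets 220 were lower. Leaving out 1 library gave 194 to 972 higher and 18 to 500 lower. The ends of these ranges came without young 1 and without young 4, each the only young library of its batch. For aged Ri against aged, 70 and 13 became 451 and 220 with the replicate block, 200 and 69 when only the 2 groups were fitted, and 21 and 0 without the batch term. Within 20 kb 44 were higher, and with the covariate 26 were lower. Left-out libraries gave 4 to 160 higher and 0 to 27 lower. For aged Ri against young, 1145 and 445 became 140 and 9 with the covariate and 754 and 149 with the block. Within 20 kb 740 were higher, and without the batch term 235 were lower. Left-out libraries gave 612 to 1402 higher and 111 to 783 lower. The cause of these changes was not tested, apart from the 20 kb limit, which holds fewer peaks.

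Of 1918 refits of 112 called results at named peaks, 1624 kept the call, 294 lost it and 0 reversed. The shares of counts ranged from 15.26 to 15.86% in young, 16.79 to 17.6% in aged and 16.91 to 17.68% in aged Ri libraries with 1 library left out. DESeq2 gave no adjusted p for 14174, 23986 and 10903 peaks in the 3 comparisons, and these were not counted as lost. Library numbers of young libraries did not pair with those of the others, with correlations of -0.278 to 0.07 for aged and -0.201 to 0.0732 for aged Ri libraries, so the block is only an alternative there. It also replaces the batch term, and some equal numbers join libraries of different batches. A planned search for motifs inside the peaks was not run, since no mm10 genome was used here. The median intergenic peak held 6 to 24 counts per library, which limits what single dim peaks can show.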
